A study of Mus musculus with 12 samples.

Results

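The 10 genes described here, *Retnla*, *Arg1*, *Chil3*, *Mrc1*, *Cd163*, *Folr2*, *Lyve1*, *Mgl2*, *Clec10a* and *Timd4*, are widely used as markers of tissue-resident and alternatively activated macrophages. They were taken by name from the 18996 genes measured in paraspinal tissue of 12 mice. All 10 passed the filter on low counts, as did 14765 of the 18996 genes. They were chosen from results of these same mice, in which the fall of *Retnla* after laminectomy was already known, so the group differences of these 10 genes are given as a description. Where their calls are counted, it is beside the share of all genes called in the same fit, and the calls support nothing about the 10.

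Bulk RNA sequencing was carried out on 4 No operation, 4 SHAM and 4 Laminectomy samples. The mice were BALB/c, aged 5 to 7 weeks, and no transgene is named. The study included both sexes and does not give the sex of each of these mice. No operation samples were paraspinal soft tissue of mice without surgery, while SHAM mice had paraspinal soft tissue removed with the lamina left in place, and Laminectomy mice had the lamina excised as well. By the labels, samples of both surgical groups held scar as well as soft tissue, collected on day 7 after surgery. The samples are taken here as 1 mouse each, because nothing in the labels says more than a number, and error then measures the spread between these samples.

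Macrophages of healthy connective tissue and muscle live beside vessels and fibres, clear debris and carry scavenger receptors and lectins such as CD163, the mannose receptor and LYVE-1. After injury, monocytes enter from the blood and become macrophages that pass through inflammatory and repair states. The cytokines IL-4 and IL-13 bind receptors that contain IL-4Rα, activate the transcription factor STAT6 and drive the state called alternative activation, for which RELMα (*Retnla*), arginase 1 (*Arg1*), Ym1 (*Chil3*) and the mannose receptor (*Mrc1*) are the textbook markers in mice. None of these genes is limited to macrophages.

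Between 16802988 and 18077863 counts per sample fell on genes, and values are given as CPM, that is counts per 1000000 counts of the TMM-scaled library. Skeletal muscle genes summed to 69965 to 111248 CPM across No operation mice, 1556 to 7470 CPM across SHAM mice and 2535 to 10789 CPM across Laminectomy mice, so the labelled soft tissue held muscle and the surgical samples held much less of its RNA. In each group, replicate 1 had the lowest sum of muscle genes (69965, 1556 and 2535 CPM) and the highest sum of 16 general macrophage genes (2508, 12559 and 8885 CPM). In bulk tissue, fewer cells of a type and less RNA per cell cannot be told apart.

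The promoters of 4 of the genes are shown because *Retnla*, *Mgl2* and *Timd4* were lower in both surgical groups than in No operation mice, while *Mrc1* was higher in SHAM mice. The RefSeq table for GRCm38.p6 held promoters of 7 of the 10 genes, each from 250 bases before to 50 bases after an annotated start. Capitals mark matches to 2 motifs, the STAT6 motif TTCNNNNGAA and the MAF half-site TGCTGA, on either strand.
Retnla, chr16:48842359-48842658, plus strand: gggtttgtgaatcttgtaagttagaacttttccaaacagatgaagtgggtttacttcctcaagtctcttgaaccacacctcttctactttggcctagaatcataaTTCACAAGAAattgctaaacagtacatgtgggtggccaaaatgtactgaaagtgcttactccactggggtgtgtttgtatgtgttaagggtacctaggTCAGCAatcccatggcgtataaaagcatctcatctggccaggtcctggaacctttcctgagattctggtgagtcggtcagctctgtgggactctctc
Mgl2, chr11:70130107-70130406, plus strand: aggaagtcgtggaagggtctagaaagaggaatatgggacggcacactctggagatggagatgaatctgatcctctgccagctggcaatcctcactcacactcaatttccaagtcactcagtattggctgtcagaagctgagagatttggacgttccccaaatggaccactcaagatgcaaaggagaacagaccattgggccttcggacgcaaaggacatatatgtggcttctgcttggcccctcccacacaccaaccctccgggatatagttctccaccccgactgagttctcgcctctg
Timd4, chr11:46810549-46810848, plus strand: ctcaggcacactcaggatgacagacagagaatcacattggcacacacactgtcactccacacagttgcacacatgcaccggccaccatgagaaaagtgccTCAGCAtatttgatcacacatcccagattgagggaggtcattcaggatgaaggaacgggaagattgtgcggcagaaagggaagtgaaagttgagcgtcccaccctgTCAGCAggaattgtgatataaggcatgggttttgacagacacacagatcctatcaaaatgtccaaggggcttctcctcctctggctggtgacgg
Mrc1, chr2:14229164-14229463, plus strand: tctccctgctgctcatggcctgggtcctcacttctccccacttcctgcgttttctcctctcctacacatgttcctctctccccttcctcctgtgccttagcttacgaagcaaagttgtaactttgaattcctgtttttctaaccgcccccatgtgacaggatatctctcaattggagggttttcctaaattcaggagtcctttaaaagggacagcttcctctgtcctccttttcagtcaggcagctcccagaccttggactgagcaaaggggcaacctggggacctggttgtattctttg
*Retnla* held the only STAT6 match among the 7 genes, starting 145 bases before the start site, and 6.98% of 32544 distinct mouse promoters of this length hold 1. *Timd4* and *Chil3* each held 2 MAF half-sites and *Retnla* and *Folr2* held 1 (both *Folr2* promoters), a motif present in 19.5% of promoters, whereas *Mgl2*, *Mrc1* and *Cd163* held none. The PU.1 motif GAGGAA, searched on both strands and found in 28.1% of promoters, was present in *Mrc1* (3 matches), *Mgl2* (1) and *Retnla* (1). A match is a run of letters, and no binding was measured.

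*Retnla* encodes RELMα, a secreted protein that macrophages make in response to IL-4 and IL-13 and that adipose tissue also makes (identifier 57262, chromosome 16 of GRCm38, 48842551 to 48844461). It was at 63.6, 63.0, 64.9 and 101 CPM in No operation replicates 1 to 4, the order in which values are given for each group below. In SHAM mice it was at 17.9, 0.909, 10.3 and 0.320 CPM. In Laminectomy mice it was at 0, 0.257, 1.19 and 0.313 CPM, which are 0, 5, 23 and 6 counts, where a count of 0 allows up to 0.159 CPM (3 counts). Every mouse of both surgical groups lay below every No operation mouse, and SHAM replicates 1 and 3 lay well above SHAM replicates 2 and 4. The log2 fold change was -3.31 (SE 0.91) in SHAM and -7.35 (SE 1.19) in Laminectomy mice against No operation mice, which are fitted folds of 9.95 and 163. Without SHAM replicate 1 the value for SHAM mice was -4.23, and without Laminectomy replicate 3 that for Laminectomy mice was -8.53.

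The summed level of 8 adipocyte genes (among them *Adipoq* and *Plin1*) was 2207 to 3834 CPM across No operation mice, 623, 269, 2466 and 361 CPM in SHAM replicates 1 to 4 and 74.3 to 495 CPM across Laminectomy mice. SHAM replicates 1 and 3, the 2 highest for *Retnla*, were also the 2 highest for adipocyte genes, though in the opposite order, and SHAM replicate 3 lay within the No operation range for adipocyte genes but below it for *Retnla*. SHAM replicates 2 and 4 were in the opposite order too. Of the 8 genes, 4 fell in SHAM mice and 8 in Laminectomy mice, where 25.1% and 24.4% of all tested genes were called lower. *Adipoq* had a log2 fold change of -2.29 (SE 0.91, edgeR adjusted p = 0.0454) in SHAM and -3.94 (SE 0.98, edgeR adjusted p = 0.00466) in Laminectomy mice. The count for SHAM mice was 8 without SHAM replicate 3 and 1 without SHAM replicate 1 or 4, and it was 2 without No operation replicate 2, 3 or 4, SHAM replicate 2 or Laminectomy replicate 2 or 4. The part of adipocyte RNA in the level of *Retnla* was not tested.

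*Arg1* encodes arginase 1, which splits arginine into ornithine and urea (identifier 11846, chromosome 10, 24915221 to 24927484). It was at 41.0 CPM in No operation replicate 1 and at 0.378, 0.266 and 0.351 CPM in replicates 2 to 4. SHAM mice were at 1665, 169, 86.7 and 232 CPM, and Laminectomy mice were at 456, 42.5, 29.2 and 51.2 CPM. Replicate 1 was the highest of its group in all 3 groups, and No operation replicate 1 lay within the range of Laminectomy mice but below all SHAM mice. On the log2 scale, the fold change was 5.68 (SE 1.82) in SHAM mice and 3.79 (SE 1.67) in Laminectomy mice. It depended on replicate 1: without No operation replicate 1 it was 10.63 and 8.74, without SHAM replicate 1 it was 3.96 for SHAM mice, and without Laminectomy replicate 1 it was 1.97 for Laminectomy mice. Between Laminectomy and SHAM mice, it was -1.89 (SE 1.53), -0.16 without SHAM replicate 1 and -3.72 without Laminectomy replicate 1.

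*Chil3* encodes Ym1, a chitinase-like lectin that alternatively activated macrophages and also neutrophils and their precursors make (identifier 12655, chromosome 3, 106147554 to 106167564). It was at 34.9, 340, 149.6 and 2.94 CPM across No operation mice, 183, 53.3, 141 and 157 CPM across SHAM mice and 65.8, 251, 518 and 102 CPM across Laminectomy mice. The 3 groups overlapped throughout. By edgeR, the log2 fold change was 0.02 (SE 1.00) in SHAM and 0.83 (SE 1.01) in Laminectomy mice. Without No operation replicate 2 these values were 1.09 and 1.90, without No operation replicate 4 the value for SHAM mice was -0.40, and without Laminectomy replicate 3 that for Laminectomy mice was 0.08. Summed over 10 neutrophil genes, such as *S100a8*, *S100a9* and *Ly6g*, the level was 69.9, 3169, 1208 and 22.6 CPM across No operation mice, 1070, 436, 581 and 1424 CPM across SHAM mice and 575, 1749, 2747 and 666 CPM across Laminectomy mice. The order of mice was nearly that of *Chil3*. The ratio of *Chil3* to *S100a9* was between 0.348 and 0.881 in 11 mice and 1.85 in No operation replicate 1. Without the 4 mice with the most counts of the granule genes *Mpo*, *Elane*, *Ltf* and *Camp* (No operation and Laminectomy replicates 2 and 3), a choice made after the values were seen, the log2 fold change was 2.82 (SE 0.94) in SHAM and 2.14 (SE 0.98) in Laminectomy mice. That choice removes the No operation mice highest in *Chil3* itself. The part of neutrophils and their precursors in the level of *Chil3* was not tested.

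**Figure D1:**
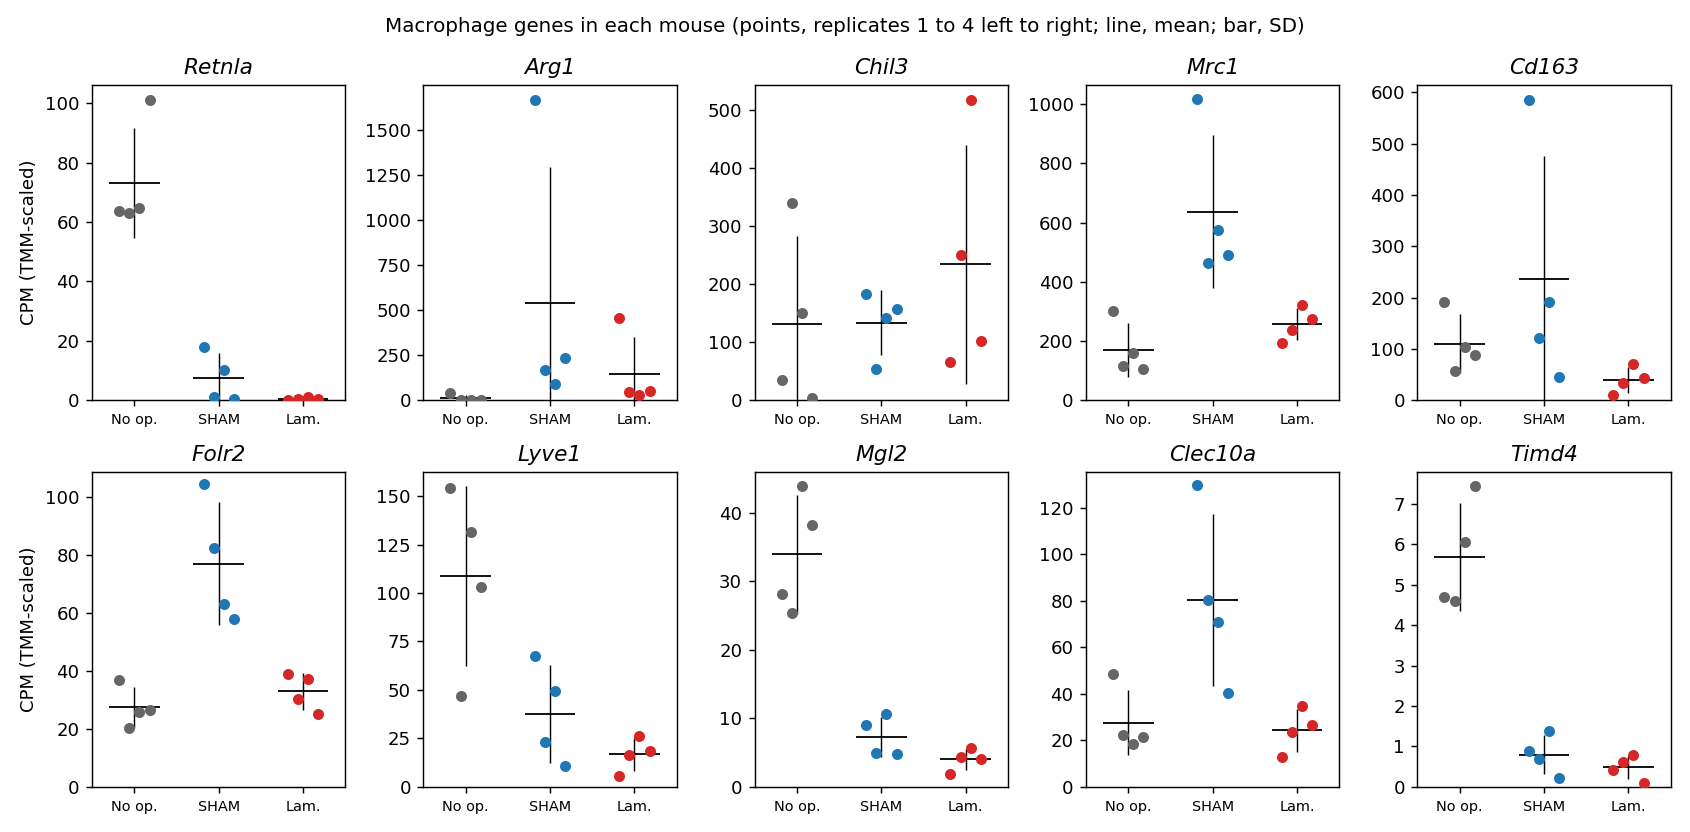
CPM (vertical axes, linear, a separate scale for each gene) of the 10 genes in No operation (grey), SHAM (blue) and Laminectomy (red) mice. Points are mice, horizontal lines are means and vertical bars are 1 SD of 4 mice, drawn no lower than 0. *Retnla*, *Mgl2* and *Timd4* lay below all No operation mice in both surgical groups, while *Mrc1* and *Folr2* were highest in SHAM mice.

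The lectin receptors did not share a pattern. *Mrc1* encodes the mannose receptor CD206, an endocytic lectin (identifier 17533, chromosome 2, 14229392 to 14332057). It was at 301, 114, 160.3 and 104 CPM across No operation mice, 1018, 465, 574 and 490.3 CPM across SHAM mice and 192, 238, 322 and 274 CPM across Laminectomy mice. All SHAM mice lay above all mice of the other groups, whereas Laminectomy and No operation mice overlapped. The fitted log2 fold change was 1.91 (SE 0.36) in SHAM mice, 0.59 (SE 0.35) in Laminectomy mice and -1.31 (SE 0.36) between Laminectomy and SHAM mice.

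*Mgl2* and *Clec10a* encode closely related galactose-type lectins and lie on chromosome 11 (70130329 to 70137550, identifier 216864, and 70156197 to 70170834, identifier 17312). In 11 of 12 mice the deposited values of both genes were not whole numbers, so reads may have been divided between copies and the split between the genes is uncertain. *Mgl2* was at 28.2, 25.4, 43.9 and 38.3 CPM across No operation mice, 8.99, 4.92, 10.6 and 4.80 CPM across SHAM mice and 1.91, 4.32, 5.70 and 4.07 CPM across Laminectomy mice. Both surgical groups lay wholly below No operation mice and overlapped each other. *Clec10a* was at 48.3, 22.2, 18.5 and 21.4 CPM across No operation mice, 129.6, 80.1, 71.0 and 40.4 CPM across SHAM mice and 12.7, 23.6, 34.9 and 26.4 CPM across Laminectomy mice. Its lowest SHAM mouse lay below the highest No operation mouse and above all Laminectomy mice. The log2 fold change in SHAM mice was -2.21 (SE 0.35) for *Mgl2* and 1.54 (SE 0.41) for *Clec10a*, and in Laminectomy mice it was -3.08 (SE 0.36) and -0.18 (SE 0.41), the latter 0.24 without No operation replicate 1. The ratio of *Mgl2* to *Clec10a* CPM was 0.584 to 2.38 in No operation mice, 0.0614 to 0.149 in SHAM mice and 0.151 to 0.183 in Laminectomy mice, 3 ranges that did not overlap although the last 2 nearly touched.

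Dendritic cells can also carry these lectins. Of 9 dendritic cell genes tested, 6 rose in SHAM mice (25.7% of all tested genes), and 4 rose and 2 fell in Laminectomy mice (24.2% and 24.4%). The class II gene *H2-Ab1* had a log2 fold change of 1.07 (SE 0.17, edgeR adjusted p = 0.000297) in SHAM mice, and *Cd209a*, a lectin of monocyte-derived dendritic cells, had one of -1.20 (SE 0.29, edgeR adjusted p = 0.00434) in Laminectomy mice. The summed level of the list was 162 to 246 CPM in No operation, 341 to 503 CPM in SHAM and 248 to 333 CPM across Laminectomy mice. The class II genes *H2-Ab1* and *H2-Eb1* held most of that sum, with means of 179 and 154 CPM of 437 CPM in SHAM mice. In No operation mice they were at 85.4 and 72.7 CPM of 208 CPM, and the part of other cells in these 2 genes was not tested. Over all mice, *Clec9a* and *Xcr1*, which mark 1 subset of dendritic cells, were at 0.847 to 4.66 and 0.154 to 1.20 CPM, and *Zbtb46*, a transcription factor of conventional dendritic cells, was at 11.3 to 26.9 CPM. *Zbtb46* fell in Laminectomy mice (log2 fold change -0.51, SE 0.19, edgeR adjusted p = 0.0381) and had a log2 fold change of -0.43 (SE 0.19, edgeR adjusted p = 0.0663) in SHAM mice. *Clec9a* had log2 fold changes of -0.65 (SE 0.37, edgeR adjusted p = 0.143) in SHAM and -0.70 (SE 0.37, edgeR adjusted p = 0.121) in Laminectomy mice, and *Xcr1* did not pass the filter on low counts. The part of dendritic cells in the levels of *Mgl2* and *Clec10a* was not tested.

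Among the receptors for scavenging, *Cd163* encodes the receptor for haemoglobin bound to haptoglobin (identifier 93671, chromosome 6, 124304656 to 124330527). It was at 191, 56.8, 103 and 88.2 CPM across No operation mice, 585, 122, 192 and 44.8 CPM across SHAM mice and 9.26, 33.2, 70.2 and 42.8 CPM across Laminectomy mice. The groups overlapped in all comparisons, and SHAM mice spread from the level of Laminectomy mice to above all No operation mice. The log2 fold change was 1.11 (SE 0.73) in SHAM, 0.14 without SHAM replicate 1, and -1.50 (SE 0.74) in Laminectomy mice. Relative to *Mrc1*, *Cd163* was at 0.498 to 0.845 in No operation mice, 0.0915 to 0.575 in SHAM mice and 0.0482 to 0.218 in Laminectomy mice.

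*Folr2* encodes folate receptor β of resident macrophages (identifier 14276, chromosome 7, 101839988 to 101857194), and its exons overlap those of *Gm10602* on the other strand. It was at 36.9, 20.3, 25.8 and 26.6 CPM across No operation mice, 104, 82.4, 63.2 and 57.7 CPM across SHAM mice and 39.0, 30.4, 37.3 and 25.2 CPM across Laminectomy mice. As for *Mrc1*, every SHAM mouse lay above every other mouse. On the log2 scale, the fold change was 1.49 (SE 0.23) in SHAM, 0.27 (SE 0.23) in Laminectomy and -1.22 (SE 0.23) between Laminectomy and SHAM mice.

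*Lyve1* encodes a hyaluronan receptor of perivascular macrophages and of lymphatic endothelium (identifier 114332, chromosome 7, 110850607 to 110863239). It was at 154, 46.8, 131 and 103 CPM across No operation mice, 67.3, 23.1, 49.3 and 10.7 CPM across SHAM mice and 5.56, 16.6, 26.4 and 18.7 CPM across Laminectomy mice. All Laminectomy mice lay below all No operation mice, and SHAM mice overlapped both groups. By edgeR, the log2 fold change was -1.53 (SE 0.58) in SHAM and -2.69 (SE 0.60) in Laminectomy mice. In No operation mice, *Lyve1* was at 2.31 to 5.10 times the CPM of *Folr2*, against 0.186 to 0.780 in SHAM and 0.143 to 0.742 in Laminectomy mice.

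Genes of lymphatic endothelium also moved. Of 7 such genes, 5 fell and 2 rose in SHAM mice (25.1% and 25.7% of all tested genes). In Laminectomy mice 4 fell and 2 rose (24.4% and 24.2%). *Mmrn1*, a matrix protein of lymphatic vessels, had log2 fold changes of -2.53 (SE 0.46, edgeR adjusted p = 0.000663) and -2.02 (SE 0.45, edgeR adjusted p = 0.00257). *Flt4*, the receptor of lymphatic growth factors, had log2 fold changes of -1.17 (SE 0.16, edgeR adjusted p = 7.25e-05) and -0.72 (SE 0.15, edgeR adjusted p = 0.0019). *Pdpn*, which fibroblasts also make, rose in SHAM mice (log2 fold change 2.27, SE 0.39, edgeR adjusted p = 0.000399) and held the largest share of the list's sum there. The summed level of the list was 165 to 298 CPM in No operation, 202 to 341 CPM in SHAM and 156 to 204 CPM across Laminectomy mice. Without the 4 mice highest in granule genes, 3 fell and 1 rose in SHAM and 2 fell in Laminectomy mice. The part of lymphatic RNA in the level of *Lyve1* was not tested.

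*Timd4* encodes TIM-4, a receptor for phosphatidylserine on dying cells that marks long-lived resident macrophages (identifier 276891, chromosome 11, 46810800 to 46844332). It was low in all mice, at 4.69, 4.60, 6.06 and 7.43 CPM across No operation mice, 0.899, 0.695, 1.38 and 0.213 CPM across SHAM mice and 0.424, 0.617, 0.777 and 0.104 CPM across Laminectomy mice. Both surgical groups lay wholly below No operation mice. The fitted log2 fold change was -2.83 (SE 0.53) in SHAM and -3.55 (SE 0.56) in Laminectomy mice, with -0.72 (SE 0.56) between them.

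**Figure D2:**
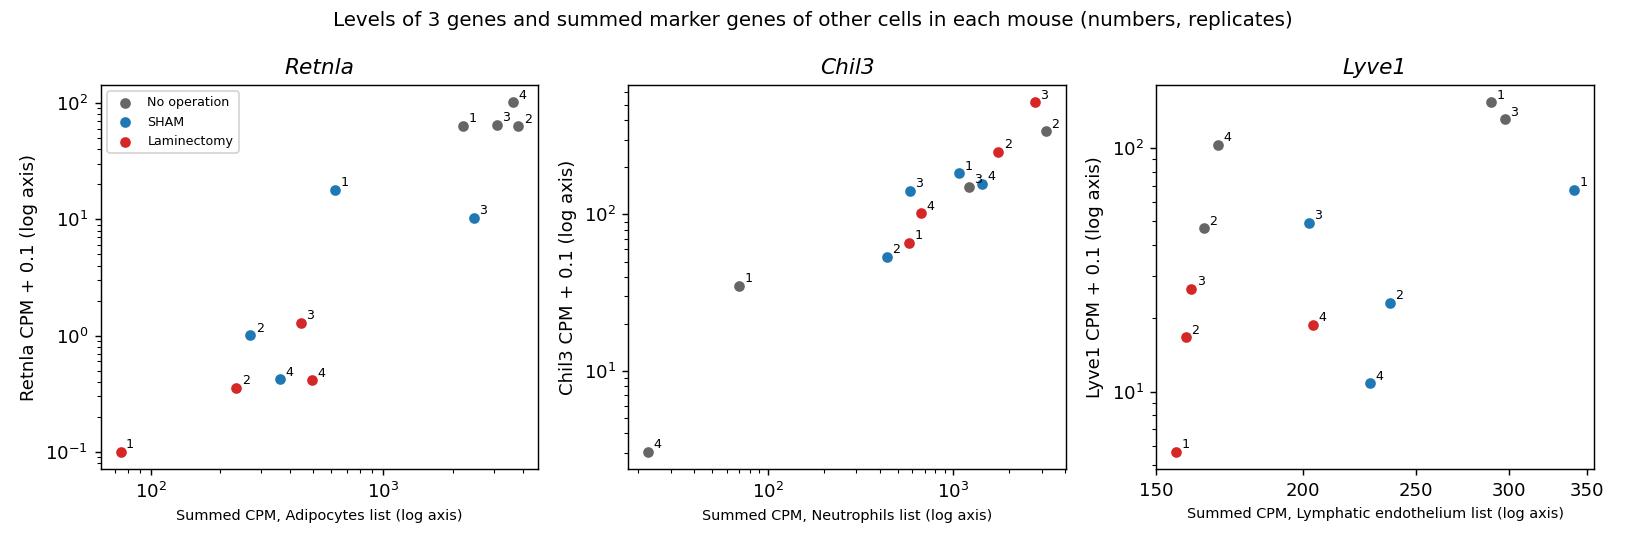
CPM plus 0.1 of *Retnla*, *Chil3* and *Lyve1* (vertical log axes) against the summed CPM of 8 adipocyte, 10 neutrophil and 7 lymphatic endothelium genes (horizontal log axes) in the 12 mice, numbered by replicate and coloured by group. *Chil3* and neutrophil genes were both highest in Laminectomy replicate 3 and No operation replicate 2 and both lowest in No operation replicate 4, and *Retnla* and adipocyte genes were both lowest in Laminectomy replicate 1.

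Counted together, 4 of the 10 genes were called higher (*Arg1*, *Mrc1*, *Folr2*, *Clec10a*) and 4 lower (*Retnla*, *Lyve1*, *Mgl2*, *Timd4*) in SHAM than in No operation mice, with an adjusted p under 0.05 and a log2 fold change beyond 0.5 in size, where 50.8% of all tested genes were called, 25.7% higher and 25.1% lower. In Laminectomy against No operation mice, 4 were called lower, the same 4 as in SHAM mice, and 0 higher, where 48.6% of all genes were called, 24.2% higher and 24.4% lower. Between Laminectomy and SHAM mice 0 of the 10 were called, as were 0.0% of all genes with edgeR. At an unadjusted p below 0.05, 6 of the 10 and 2359 of all 14765 genes differed, and DESeq2 called 5 of the 10 and 696 of the 15995 genes to which it gave an adjusted p (4.35%). Mice of the 2 groups did not overlap for 6 of the 10 genes in SHAM against No operation (54.5% of all genes), for 4 in Laminectomy against No operation (56.0%) and for 3 between Laminectomy and SHAM (10.1%), which were *Mrc1*, *Folr2* and *Clec10a*. The median log2 fold change of the 10 genes was 0.56, -0.84 and -1.27 in these comparisons, against 0.00, 0.01 and 0.00 over all genes. Because the genes were chosen from these mice and 2 comparisons share the No operation mice, nothing is read from these counts. The call of *Lyve1* in SHAM mice was lost without No operation replicate 1, 3 or 4 or SHAM replicate 2 or 4, which left 7 of the 10 called beside 46.7% to 50.4% of all genes. In Laminectomy mice, *Arg1* and *Mrc1* were also called without No operation replicate 1 (6 of the 10, beside 47.7% of all genes), and *Arg1* without SHAM replicate 1 (5 of the 10, beside 49.1%). With the replicate number as a block, *Arg1* was called there too (5 of the 10, beside 48.4%).

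**Figure D3:**
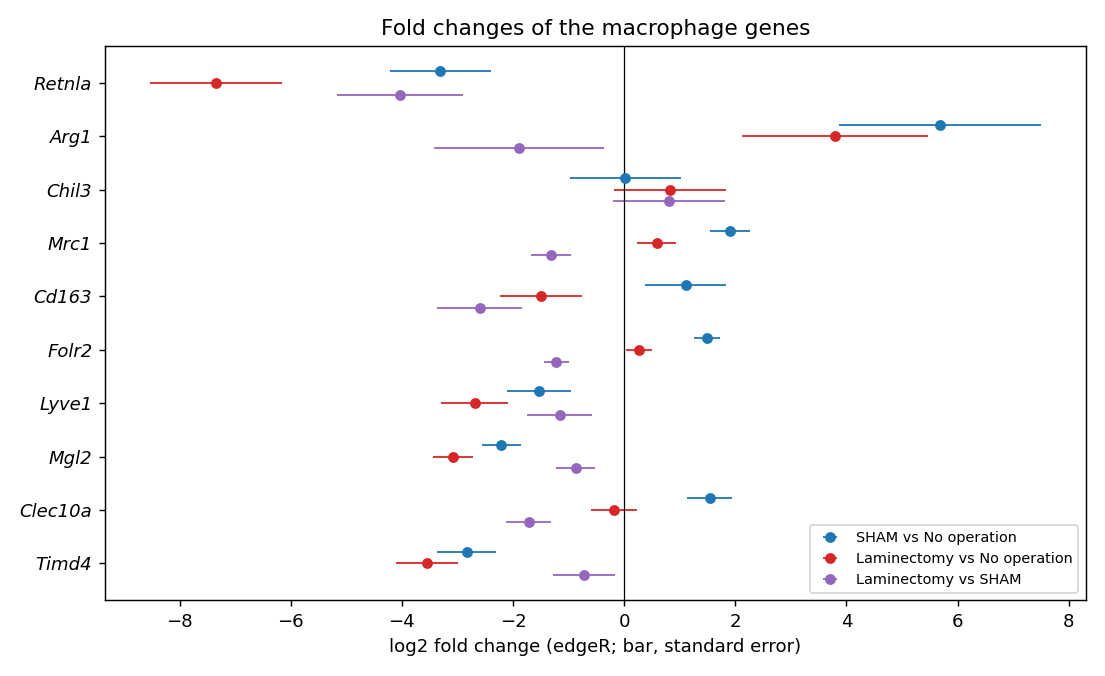
Log2 fold changes (horizontal axis) of the 10 genes in SHAM against No operation (blue), Laminectomy against No operation (red) and Laminectomy against SHAM mice (purple), with standard errors of the edgeR fit of 4 mice per group. *Retnla*, *Lyve1*, *Mgl2* and *Timd4* were below 0 in all 3 comparisons, and *Mrc1* and *Folr2* were above 0 against No operation mice and below 0 in Laminectomy against SHAM mice.

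All 16 general macrophage genes tested, such as *Adgre1* (F4/80), *Csf1r* and *Cd68*, rose in both surgical groups, with median log2 fold changes of 2.47 in SHAM and 2.12 in Laminectomy mice. Over all tested genes, 25.7% were called higher in SHAM and 24.2% in Laminectomy mice. *Csf1r*, the receptor for macrophage colony-stimulating factor, had log2 fold changes of 1.89 (SE 0.27, edgeR adjusted p = 0.000126) and 1.30 (SE 0.27, edgeR adjusted p = 0.00151). Measured against the mean log2 CPM of these 16 genes in the same mouse, 9 of the 10 genes had a lower mean in SHAM than in No operation mice, as did 97.8% of all tested genes, and 6 of them (*Retnla*, *Folr2*, *Lyve1*, *Mgl2*, *Clec10a* and *Timd4*) were lower without overlap between mice, as were 88.5% of all genes. In Laminectomy mice 9 of the 10 had a lower mean (95.7% of all genes), and 8, these 6 with *Mrc1* and *Cd163*, were lower without overlap (82.2% of all genes). Most tested genes were thus lower on this scale, and nothing about the 10 genes is read from these counts. *Arg1* had a higher mean in both groups. The difference on this relative log2 scale ranged in SHAM mice from -0.75 for *Mrc1* to -7.28 for *Retnla* among the 9 lower genes. In Laminectomy mice it ranged from -0.36 for *Chil3* to -9.71 for *Retnla*, with -1.91 for *Folr2* and -5.63 for *Timd4*. Measured against *Csf1r* alone, 8 of the 10 genes were lower in each surgical group than in No operation mice, as were 93.4% of all tested genes in SHAM and 88.6% in Laminectomy mice, with *Mrc1* at 0.10 in SHAM mice and *Chil3* at 0.50 in Laminectomy mice. These relative values carry no test.

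**Figure D4:**
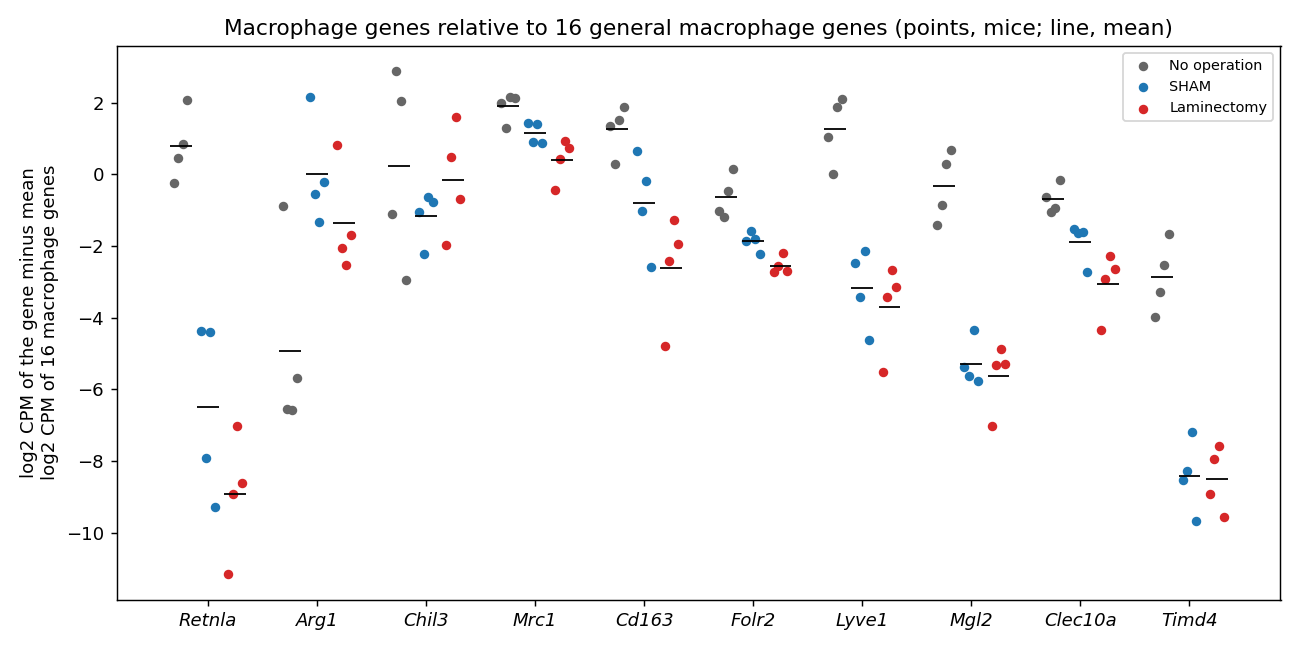
Log2 CPM of each gene minus the mean log2 CPM of 16 general macrophage genes in the same mouse (vertical axis), for No operation (grey), SHAM (blue) and Laminectomy mice (red). Points are mice and lines are means of 4 mice. *Retnla*, *Lyve1*, *Mgl2* and *Timd4* lay far below their No operation level in both surgical groups, and *Arg1* lay above it on average; on this scale 97.8% of all tested genes were lower in SHAM and 95.7% in Laminectomy mice.

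Other genes of resident macrophages were counted from a list of 20, and 11 of them rose and 0 fell in SHAM mice (25.7% and 25.1% of all tested genes). The scavenger receptor gene *Marco* rose by a log2 fold change of 4.54 (SE 0.90, edgeR adjusted p = 0.00107), the platelet factor gene *Pf4* by 3.15 (SE 0.43, edgeR adjusted p = 9.01e-05) and *Stab1*, a clearance receptor, by 2.10 (SE 0.26, edgeR adjusted p = 4.26e-05). *Marco* was at 0.0701 to 2.83 CPM in No operation and 8.22 to 48.4 CPM in SHAM mice, replicate 1 being the highest in both groups. In Laminectomy mice 5 rose and 4 fell (24.2% and 24.4% of all tested genes). *Pf4* (2.13, SE 0.42, edgeR adjusted p = 0.0011) and *Stab1* (1.40, SE 0.25, edgeR adjusted p = 0.000623) were among those that rose. The C-type lectin genes *Cd209b*, *Cd209d* and *Cd209g* fell there, with *Cd209b* at -4.07 (SE 1.10, edgeR adjusted p = 0.00759). The fourth gene that fell was *Gas6*, which bridges dying cells to phagocyte receptors (-0.79, SE 0.27, edgeR adjusted p = 0.0248). Without the 4 mice highest in granule genes, 5 rose in SHAM mice, and 3 rose and 0 fell in Laminectomy mice.

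*Cd209b* was at 5.86, 3.90, 4.46 and 4.56 CPM across No operation mice, 19.6, 4.28, 8.47 and 0.107 CPM across SHAM mice and 0, 0.206, 0.518 and 0.365 CPM across Laminectomy mice. *Cd209f* showed a like spread in SHAM mice, at 88.9, 31.5, 25.7 and 1.07 CPM, and was at 0, 0.668, 5.23 and 2.92 CPM across Laminectomy mice. SHAM replicate 4 lay within the range of Laminectomy mice for both genes, as it did for *Cd163* and, together with SHAM replicate 2, for *Retnla* and *Lyve1*. The *Cd209* genes are near copies of each other, so their counts may be uncertain. Deposited values of *Cd209f* and *Cd209g* were not whole in some mice, whereas no fraction was seen for *Cd209b* and *Cd209d*.

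Between Laminectomy and SHAM mice all 20 genes of the resident list had a negative log2 fold change, with a median of -1.35, and 9 of 20 did not overlap, beside 10.1% of all genes. Of these, 0 passed the adjusted threshold with edgeR, while 16 had an unadjusted p below 0.05 and DESeq2 called 11. *F13a1*, a clotting factor subunit of macrophages, was at 329 to 1378 CPM in SHAM and 191 to 310 CPM across Laminectomy mice (log2 fold change -1.41, SE 0.44, edgeR adjusted p = 0.169). *Maf*, a transcription factor of resident macrophages, was at 141 to 227 CPM in SHAM and 111 to 134 CPM across Laminectomy mice (log2 fold change -0.56, SE 0.14, edgeR adjusted p = 0.131). Over all genes 49.4% were negative, as were 9 of the 10 genes described above, *Chil3* being positive. Other lists went in both directions in the same comparison. Most members were negative among general macrophage genes (15 of 16, median -0.54), the IL-4 and IL-13 pathway (16 of 18, median -0.46), adipocyte genes (8 of 8, median -1.93), dendritic cell genes (8 of 9, median -0.20), classical activation (8 of 12, median -0.35), monocyte genes (7 of 11, median -0.29) and the other genes of alternative activation (7 of 11, median -0.37). Most were positive among skeletal muscle genes (8 of 8, median 0.56), neutrophil genes (8 of 10, median 1.33), eosinophil genes (5 of 6, median 2.40), arginine metabolism (6 of 11, median 0.21) and lymphatic endothelium (4 of 7, median 0.33). In these lists too, edgeR called 0 genes.

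Of 14 other genes of alternative activation, 11 were tested. In SHAM mice 4 rose and 4 fell (25.7% and 25.1% of all tested genes), and in Laminectomy mice 4 rose and 3 fell (24.2% and 24.4%). Those that rose were the same 4 in both groups: *Ccl22* (a chemokine), *Pdcd1lg2* (PD-L2), *Egr2* (a transcription factor) and *Atp6v0d2* (a proton pump subunit of macrophages and osteoclasts). *Egr2* had log2 fold changes of 2.24 (SE 0.35, edgeR adjusted p = 0.000229) in SHAM and 2.45 (SE 0.35, edgeR adjusted p = 0.000157) in Laminectomy mice. *Ccl24*, a chemokine for eosinophils, and *Cish*, a target of STAT signalling, fell in both groups, *Ccl24* by -0.79 (SE 0.32, edgeR adjusted p = 0.049) and -2.16 (SE 0.34, edgeR adjusted p = 0.000249). The count for SHAM mice was 5 without No operation replicate 3 or SHAM replicate 2, 3 or 4, and that for Laminectomy mice was 4 without Laminectomy replicate 1.

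In the IL-4 and IL-13 pathway, 18 of 21 genes were tested. The ligand genes *Il4*, *Il13* and *Il25* had too few counts, *Il4* at 0.0530 CPM in 1 SHAM mouse and at 0 in the other 11 mice. The receptor genes rose in both groups. *Il4ra* was at 124, 47.9, 62.5 and 46.2 CPM across No operation mice, 811, 484, 349 and 446 CPM across SHAM mice and 312, 215, 196 and 277 CPM across Laminectomy mice (log2 fold changes 2.90, SE 0.37, edgeR adjusted p = 5.24e-05, and 1.83, SE 0.35, edgeR adjusted p = 0.000982). *Il13ra1*, *Il2rg*, *Il1rl1* (the receptor of IL-33) and *Il13ra2*, a decoy receptor, also rose in both groups. *Stat6* had log2 fold changes of 0.69 (SE 0.14, edgeR adjusted p = 0.00141) in SHAM and 0.18 (SE 0.14, edgeR adjusted p = 0.288) in Laminectomy mice, and *Il33*, an alarm cytokine of stromal cells, of 2.18 (SE 0.51, edgeR adjusted p = 0.00327) and 0.35 (SE 0.50, edgeR adjusted p = 0.566). Laminectomy and SHAM mice were compared directly for *Stat6* and *Il33* too, and the edgeR adjusted p was 0.146 and 0.141, while DESeq2 called both.

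Below the receptors the directions were mixed. The signalling inhibitor gene *Socs1* rose in both surgical groups (log2 fold changes 1.63, SE 0.34, edgeR adjusted p = 0.00142, and 1.80, SE 0.34, edgeR adjusted p = 0.000859), and the kinase genes *Jak3* and *Tyk2* rose in SHAM mice. Another 5 genes fell in both groups: the transcription factor genes *Irf4*, *Pparg* and *Klf4*, the coactivator *Ppargc1b* and the signalling adaptor *Irs2*. *Irf4* was at 22.5, 20.03, 37.2 and 36.4 CPM across No operation mice, 10.9, 7.17, 16.7 and 3.79 CPM across SHAM mice and 2.49, 3.86, 4.25 and 2.87 CPM across Laminectomy mice, 2 groups wholly below No operation mice. Its log2 fold changes were -1.59 (SE 0.39, edgeR adjusted p = 0.00403) and -3.11 (SE 0.42, edgeR adjusted p = 9.83e-05). *Pparg*, also the main regulator of adipocytes, had log2 fold changes of -1.27 (SE 0.33, edgeR adjusted p = 0.00548) and -2.02 (SE 0.33, edgeR adjusted p = 0.000379). In all, 10 genes of the pathway rose and 5 fell in SHAM mice (25.7% and 25.1% of all tested genes). In Laminectomy mice 6 rose and 5 fell (24.2% and 24.4%). The 5 that fell are used by other cells too, and muscle and adipocyte genes fell in the same mice; the part of those cells in these values was not tested.

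Arginase competes for arginine with the inducible nitric oxide synthase gene *Nos2*. *Nos2* was at 10.5, 6.68, 5.60 and 8.97 CPM across No operation mice, 369, 76.7, 37.7 and 47.8 CPM across SHAM mice and 21.2, 6.63, 8.65 and 17.2 CPM across Laminectomy mice. It rose in SHAM mice (log2 fold change 4.06, SE 0.75, edgeR adjusted p = 0.000669), while in Laminectomy mice its value was 0.76 (SE 0.69, edgeR adjusted p = 0.365). The ratio of *Arg1* to *Nos2* CPM was 3.89 in No operation replicate 1 and at most 0.0566 in the other No operation mice, 2.21 to 4.85 in SHAM mice and 2.99 to 21.5 in Laminectomy mice. SHAM replicate 1 was highest for both genes. Of 11 genes of arginine metabolism besides *Arg1*, 4 rose and 4 fell in SHAM mice (25.7% and 25.1% of all tested genes). In Laminectomy mice 4 rose and 3 fell (24.2% and 24.4%). *Arg2*, the mitochondrial arginase, and *Srm*, which makes spermidine, rose in both groups, and *Sms*, which makes spermine, and *Oat*, which uses ornithine, fell in both. *Odc1*, the first enzyme of polyamine synthesis, had log2 fold changes of -0.13 (SE 0.17, edgeR adjusted p = 0.517) and 0.09 (SE 0.17, edgeR adjusted p = 0.676).

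Of 12 genes named for classical (inflammatory) activation, 11 rose and 0 fell in each surgical group. Over all tested genes, 25.7% were called higher in SHAM and 24.2% in Laminectomy mice. The part of cells other than macrophages in these values was not tested. *Il1b* had log2 fold changes of 5.17 (SE 0.81, edgeR adjusted p = 0.000214) and 3.77 (SE 0.76, edgeR adjusted p = 0.00137), and *Il6* of 5.69 (SE 0.84, edgeR adjusted p = 0.000143) and 5.41 (SE 0.83, edgeR adjusted p = 0.00023). In No operation mice *Il6* was at 0.620, 0.189, 0.0666 and 0 CPM (9, 3, 1 and 0 counts), so the size of its folds is uncertain. Of 11 monocyte genes, 6 rose and 0 fell in SHAM mice (25.7% and 25.1% of all tested genes). In Laminectomy mice 5 rose and 0 fell (24.2% and 24.4%). *Ccr2*, the receptor by which monocytes leave the bone marrow, had log2 fold changes of 1.72 (SE 0.37, edgeR adjusted p = 0.00184) and 1.18 (SE 0.37, edgeR adjusted p = 0.0154).

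The other cell lists were counted in the same way, beside 50.8% of all tested genes called in SHAM and 48.6% in Laminectomy mice. Of 10 neutrophil genes, 1 rose in SHAM mice (*Csf3r*, log2 fold change 2.62, SE 0.70, edgeR adjusted p = 0.00661) and 0 moved in Laminectomy mice. The SHAM count was 2 without No operation replicate 2 or SHAM replicate 2, and the Laminectomy count was 2 without No operation replicate 2 and 1 without No operation replicate 4. Of 6 eosinophil genes, 1 fell in SHAM mice (*Ear6*, log2 fold change -4.48, SE 1.73, edgeR adjusted p = 0.041) and 0 moved in Laminectomy mice. In SHAM mice 0 were called without No operation replicate 3, SHAM replicate 1, 2 or 4 or Laminectomy replicate 2, while 2 fell without No operation replicate 1 or 4 and 2 rose without No operation replicate 2. In Laminectomy mice 1 rose without No operation replicate 2. Without the 4 mice highest in granule genes, 0 adipocyte genes fell in SHAM and 1 in Laminectomy mice. All 8 skeletal muscle genes fell in both surgical groups, with median log2 fold changes of -4.12 in SHAM and -3.57 in Laminectomy mice.

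Levels between genes were compared per kilobase of exon. In No operation mice *Retnla* was the highest of the 10 at 122 ± 31.1 CPM per kilobase (SD, n = 4), followed by *Chil3* at 80.7 ± 93.3, *Lyve1* at 37.3 ± 15.9 and *Mrc1* at 26.7 ± 14.3 CPM per kilobase (SD, n = 4), and *Timd4* was the lowest at 2.62 ± 0.616. In SHAM mice *Arg1* came first at 242 ± 338 and *Mrc1* next at 99.96 ± 40.6 CPM per kilobase (SD, n = 4), and *Retnla* was the eighth at 12.3 ± 14.0. The place of *Arg1* rested on replicate 1: without SHAM replicate 1 it was at 72.95 and *Mrc1* came first at 80.01 CPM per kilobase, and without Laminectomy replicate 1 *Arg1* was the fourth at 18.4 CPM per kilobase. In No operation mice, *Chil3* was at 107 and *Retnla* at 106.5 CPM per kilobase without replicate 4, and *Chil3* was below *Lyve1* without replicate 2. In Laminectomy mice *Chil3* came first at 143.5 ± 126, *Arg1* next at 65.0 ± 93.2 and *Retnla* was the ninth at 0.735 ± 0.866 CPM per kilobase (SD, n = 4). Without Laminectomy replicate 3, *Chil3* was at 85.5 and *Retnla* at 0.317 CPM per kilobase, both at the same place in the order, and without SHAM replicate 1 *Retnla* was the eighth in SHAM mice at 6.402 CPM per kilobase. It was the seventh without SHAM replicate 2 or 4. Genes next to each other in the order overlapped over mice, except that *Mgl2* lay wholly above *Timd4* in SHAM mice and that *Mrc1* lay wholly above *Folr2*, and *Folr2* above *Clec10a*, in Laminectomy mice.

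Genes whose log2 CPM was most like that of each of the 10 over the 12 mice were named by Pearson correlation, as a description without a test, since the mice fall into groups. *Retnla* was nearest to *Selenbp1* and *Ppl* (0.98 each) and *Lyve1* to *Fmo2* and *Ppl* (0.96 each). *Mgl2* was nearest to *Ak3* and *Vps13d* (0.99 each) and *Timd4* to *Aldh2* and *Gstm1* (0.97 each). *Arg1* was nearest to the chemokine genes *Ccl9* and *Cxcl3* (0.99 each), and *Chil3* to *Tmem40* and *Lcn2* (0.97 each), the latter a protein of neutrophil granules. *Mrc1* was nearest to *Ap2a2* and *Nid1* (0.98 each), *Folr2* to *Ap2a2* (0.95) and *Acox3* (0.94), *Cd163* to *C3* and *Dpep1* (0.97 each) and *Clec10a* to *Rtn4rl2* and *Adgrd1* (0.97 each). Within the 10, *Mgl2* and *Retnla* were at 0.96 and *Mrc1* and *Folr2* at 0.90, while *Mgl2* and *Clec10a* were at -0.03.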

How the data were processed

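Poly(A) RNA of 12 mouse paraspinal samples was measured. Per the labels and the study's methods, stranded libraries were sequenced with paired reads; the submitters' processing notes name STAR 2.6.1b, featureCounts 2.0.1, DESeq2 1.30.1 and GRCm38 (mm10). The authors deposited estimated counts of 18996 genes per sample, not normalized, in which 2933 genes (15.4%) hold values that are not whole numbers, a step the sources used here do not describe. The test design assumed whole counts, so values were rounded, by 0.5 at most.

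All 12 samples, 4 per group (the study used 3 per group and does not name them), were fitted with edgeR 4.0.16 in R 4.3.3 (filterByExpr by group, TMM factors, glmQLFit and glmQLFTest, Benjamini-Hochberg over 14765 genes). Calls needed an adjusted p under 0.05 and a log2 fold change beyond 0.5 in size. The SE is the absolute log2 fold change divided by the square root of F. The fit was tested on simulated data. DESeq2 1.42.0, other scaling, filters and thresholds, a replicate block and leaving out mice were alternatives. Samples were grouped by their labels, and coordinates are from GENCODE on GRCm38. The common dispersion was 0.0799. Counts are not molecules, so the limit given for a count of 0 covers counting error only.

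The 10 genes and all other gene lists were chosen with earlier results of these data known. Named were all 10 in every mouse, genes of the pathway, activation, resident and arginine lists by role, up to 4 called genes of each other list, and the 2 genes most like each of the 10 in log2 CPM (prior count 2). Chosen outside this rule, after their values were seen, were *Adgre1*, *Csf1r*, *Cd68*, *Ccr2*, *H2-Ab1*, *Clec9a*, *Xcr1*, *Zbtb46*, *Flt4*, *S100a8*, *S100a9*, *Ly6g* and the granule genes.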

Additional observations from a re-analysis of the deposited data

Results flagged for a closer look

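In each group of 4 mice, the highest and lowest value of each of the 10 genes was compared with its nearest neighbour by Dixon's ratio, and 5 of 30 groups passed its 95% critical value, where chance alone gives about 1 in 20. *Arg1* stood apart in replicate 1 of all 3 groups: No operation replicate 1 was at 41.0 CPM against 0.266 to 0.378 CPM in the others, SHAM replicate 1 at 1665 CPM against 86.7 to 232 CPM, and Laminectomy replicate 1 at 456 CPM against 29.2 to 51.2 CPM. These 3 mice were also the highest of their groups in general macrophage genes and the lowest in skeletal muscle genes, and the part of either in the level of *Arg1* was not tested. *Retnla* was at 101 CPM in No operation replicate 4 against 63.0 to 64.9 CPM in the others. *Clec10a* was at 48.3 CPM in No operation replicate 1 against 18.5 to 22.2 CPM in the others.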

How the results depend on the processing

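Of the counts of all genes or of the 10 genes called, 114 stayed within 1.5 times the reported value under an alternative and 6 did not, and none of the 10 genes' called values changed sign. With a minimum log2 fold change of 1, calls against No operation mice numbered 4589 for SHAM and 4323 for Laminectomy mice. Under a filter of 10 or more counts per gene in each mouse, 5 of the 10 genes were called in SHAM mice (51.0% of all genes tested) and 2 in Laminectomy mice (48.6%); the filter removes *Retnla*, *Timd4* and *Arg1*. With DESeq2, 696 genes (4.35%) and 5 of the 10 were called between Laminectomy and SHAM mice, *Folr2*, *Mrc1*, *Retnla*, *Cd163* and *Clec10a*; the cause was not tested. Leaving out each mouse in turn gave 6966 to 7642 genes (46.7% to 51.3%) and 7 to 8 of the 10 called in SHAM mice, 6534 to 7416 genes (43.8% to 49.7%) and 4 to 6 of the 10 in Laminectomy mice, and 0 between Laminectomy and SHAM mice. Without the 4 mice highest in granule genes, an alternative chosen after seeing the data, 6 of the 10 were called in SHAM mice, *Chil3* in place of *Arg1*, *Lyve1* and *Clec10a*, and 4 in Laminectomy mice, beside 47.1% and 42.4% of all genes. Mice with the same replicate number did not deviate together throughout (correlations of their deviations from group means between -0.23 and 0.35). Pairs of replicate numbers 1 and 3 were at 0.13 to 0.33, and those of 2 and 4 at -0.23 to 0.35. Whether the numbers pair the mice cannot be told from these values. With the replicate number as a block, 7442, 7153 and 0 genes (50.4%, 48.4% and 0.0%) were called in the 3 comparisons, with 8, 5 and 0 of the 10, *Arg1* being the addition in Laminectomy mice. Few counts in some mice of the surgical groups limit the values of *Retnla*, *Timd4* and the *Cd209* genes, among others.

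The counts called in the other lists stayed within 1.5 times the reported value in 719 cases and did not in 61. Between Laminectomy and SHAM mice, DESeq2 called 11 resident macrophage genes, 5 of the IL-4 and IL-13 pathway, 3 of dendritic cells, 2 of arginine metabolism and 1 each of other alternative activation, general macrophages and monocytes, where edgeR called 0. Against No operation mice, DESeq2 called 2 neutrophil genes in SHAM and 1 in Laminectomy mice. The filter of 10 counts per mouse, which tests fewer genes, left in SHAM mice 5 calls of alternative activation, 5 of classical activation, 1 of adipocytes and 0 of eosinophils, and in Laminectomy mice 4 of alternative activation, 5 of resident macrophages, 3 of monocytes, 5 of classical activation, 1 of neutrophils, 3 of dendritic cells and 3 of adipocytes. With only the mice of both groups compared, SHAM mice gave 5 calls of alternative activation and 0 of eosinophils. A minimum log2 fold change of 1 left 5 arginine genes in SHAM and 3 in Laminectomy mice. Without the 4 mice highest in granule genes, SHAM mice gave 5 calls of alternative activation, 5 of resident macrophages, 6 of neutrophils, 4 of lymphatic endothelium, 0 of adipocytes and 0 of eosinophils, and Laminectomy mice 3 of resident macrophages, 6 of neutrophils, 2 of lymphatic endothelium and 1 of adipocytes. The genes by which these mice were left out (*Mpo*, *Elane*, *Ltf* and *Camp*) are 4 of the 10 neutrophil genes, so nothing is read from the neutrophil counts. Leaving out each mouse in turn, the ranges were 5 to 8 (alternative activation), 1 to 8 (adipocytes), 1 to 2 (neutrophils) and 0 to 2 (eosinophils) in SHAM mice, and 4 to 8 (alternative activation), 0 to 2 (neutrophils) and 0 to 1 (eosinophils) in Laminectomy mice.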
